A study of Mus musculus with 8 samples.

Results

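The heat shock chaperones described here were 10 genes, selected by symbol from the authors' normalized table and joined by Ensembl gene identifier to the deposited counts, which listed 55536 genes. All 10 were found, and all 10 passed the filter on low counts together with 15998 tested genes in all. The samples were 8 tumors grown from HCA-1, a mouse hepatocellular carcinoma line, implanted in the liver of male C3H mice that were 6 to 8 weeks old in the sample labels and 4 to 6 weeks old in the study's methods. Mice received saline (Control, n = 4) or PFSUV-IMQ (IMQNP, n = 4), which is the Toll-like receptor 7 agonist imiquimod in phospholipid-free cholesterol vesicles, at 4 mg/kg in 1 intravenous dose on day 17, and the tumors were taken 3 h later. There was no group with empty vesicles, so the drug and its carrier cannot be told apart. Every tumor came from the same cell line and each library came from whole tumor tissue. In bulk tissue, fewer cells of a type and less RNA per cell cannot be told apart.

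Chaperones bind unfolded proteins and help them to fold. In the cytosol, Hsp70 proteins with their J-domain partners hold new or damaged chains, Hsp90 proteins complete the folding of kinases and receptors, and the small chaperone Hspb1 keeps damaged proteins soluble. Heat shock factor 1 raises the inducible members within hours of protein damage, whereas the chaperones of the endoplasmic reticulum (ER) answer to the unfolded protein response through ATF6 and XBP1. The members were grouped as 6 cytosolic inducible genes (Hspa1a, Hspa1b, Hsph1, Hspb1, Dnajb1 and Hsp90aa1), 2 cytosolic constitutive genes (Hspa8 and Hsp90ab1) and 2 ER genes (Hspa5 and Hsp90b1).

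The 2 regulatory systems read different DNA elements, and the promoters below are shown because they carry those elements. A RefSeq promoter of 300 bases (250 before and 50 after the start of transcription, GRCm38.p6) was matched for 7 of the 10 members. No entry was matched for Hsp90aa1, Hsp90ab1 and Hspa8. Both strands were searched for a heat shock element pair, GAANNTTC or TTCNNGAA, for the triple GAANNTTCNNGAA or TTCNNGAANNTTC, which contains the pair, and for an ER stress element, in which CCAAT and CCACG stand 9 bases apart. The first 250 bases are printed 5′ to 3′ along the gene, with the matches in capitals.
Hspa1b, chr17:34959239-34959488, minus strand: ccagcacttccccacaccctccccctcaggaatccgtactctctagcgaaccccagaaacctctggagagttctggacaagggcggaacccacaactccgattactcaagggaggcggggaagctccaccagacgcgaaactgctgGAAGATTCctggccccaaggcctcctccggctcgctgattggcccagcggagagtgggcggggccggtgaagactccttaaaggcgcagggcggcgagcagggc
Hspb1, chr5:135887669-135887918, plus strand: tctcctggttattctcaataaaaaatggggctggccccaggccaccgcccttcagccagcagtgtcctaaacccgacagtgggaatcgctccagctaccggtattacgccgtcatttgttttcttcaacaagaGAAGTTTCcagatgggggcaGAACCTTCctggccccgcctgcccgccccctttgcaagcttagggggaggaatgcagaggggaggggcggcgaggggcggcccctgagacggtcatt
Hspa5, chr2:34771840-34772089, plus strand: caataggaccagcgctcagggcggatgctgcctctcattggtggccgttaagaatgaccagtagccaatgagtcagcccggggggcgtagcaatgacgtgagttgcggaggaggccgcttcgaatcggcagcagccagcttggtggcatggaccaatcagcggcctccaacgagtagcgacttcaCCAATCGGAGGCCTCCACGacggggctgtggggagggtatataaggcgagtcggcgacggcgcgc
Hsp90b1, chr10:86705445-86705694, minus strand: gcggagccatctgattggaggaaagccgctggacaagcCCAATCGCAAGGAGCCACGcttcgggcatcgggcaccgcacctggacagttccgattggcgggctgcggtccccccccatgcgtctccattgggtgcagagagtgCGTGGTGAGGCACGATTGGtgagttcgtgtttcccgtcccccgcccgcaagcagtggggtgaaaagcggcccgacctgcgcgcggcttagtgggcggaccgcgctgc
The heat shock element pair was found in Hspa1a, Hspa1b, Hsph1 and Hspb1, which are 4 of the 5 inducible members with a promoter, and in neither ER gene. It occurred in 15.1% of 32851 mouse promoters of the same length. The pair in Hspa1b began 104 bases before the start, and the Hspa1a promoter carried it at the same place and differed from Hspa1b at 3 of the 250 upstream bases. Hspb1 had a pair at 117 and another at 97 bases before its start. The triple was found only in Hsph1 among the 7 members with a promoter, and in 0.603% of all promoters. In Hsph1 it began 36 or 15 bases after the start, depending on the promoter entry. The ER stress element was found in Hspa5, 65 bases before the start, and at 212 and 107 bases before the start in Hsp90b1. It occurred in 0.119% of all promoters and in none of the inducible members searched. Neither promoter of Dnajb1 held any of these letters. A match is a description of sequence and not of factor binding.

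Sequencing depth was 16883911 to 27687756 counts in the Control tumors and 17008151 to 18527613 counts in the IMQNP tumors. On these raw totals 3 counts corresponded to between 0.108 and 0.178 CPM, the count scaled to library size. All other CPM values here use library sizes adjusted by TMM normalization, on which this floor differs. Within a group, log2 CPM of pairs of tumors correlated at 0.912 to 0.984 across genes. Of the interferon-stimulated genes 10 of 10 were called higher, where 2.46% of all tested genes were, with a median log2 fold change of 5.21. The study had already named several of them as higher in these tumors, so they are not an independent check of the labels. Among liver tumor markers the keratin Krt18 stood at 550 to 1256 CPM, Afp, Gpc3 and H19 were at most 6.08 CPM, and Igf2 did not exceed 3 counts in any tumor. Markers of normal hepatocytes varied widely within both groups. Whether their RNA came from normal liver in the sample or from the tumor cells cannot be told apart here. Hepatocyte RNA below means the level of these markers. Albumin (Alb) stood at 7075, 9027, 22446 and 2938 CPM in Control tumors 1, 3, 4 and 5 and at 4259, 22736, 5131 and 5479 CPM in IMQNP tumors 1 to 4. All 8 hepatocyte markers were highest in Control tumor 4 and IMQNP tumor 2 and lowest in Control tumor 5 and IMQNP tumor 1 of their groups.

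None of the 10 chaperones passed the threshold in either direction. All 10 fold changes were positive, with a median log2 value of 0.80 against -0.03 over all tested genes, and the median was 1.12 for the inducible, 0.09 for the constitutive and 0.38 for the ER members. In edgeR's quasi-likelihood test at adjusted p under 0.05, 0 of 10 members were called higher, where 394 of 15998 genes (2.46%) were, and 0 were called lower, where 35 genes (0.219%) were. At an unadjusted p under 0.05, 4 members (Hspa1a, Hspa1b, Hsph1 and Hsp90aa1) were higher, against 8.34% of all genes. Every IMQNP tumor lay above every Control tumor for 1 member, Hspa1a, and for 6.00% of all genes. The DESeq2 Wald test called 2 members higher, Hspa1a (adjusted p = 0.00152) and Hspa1b (adjusted p = 0.0460), where it called 3.44% of genes.

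**Figure D1:**
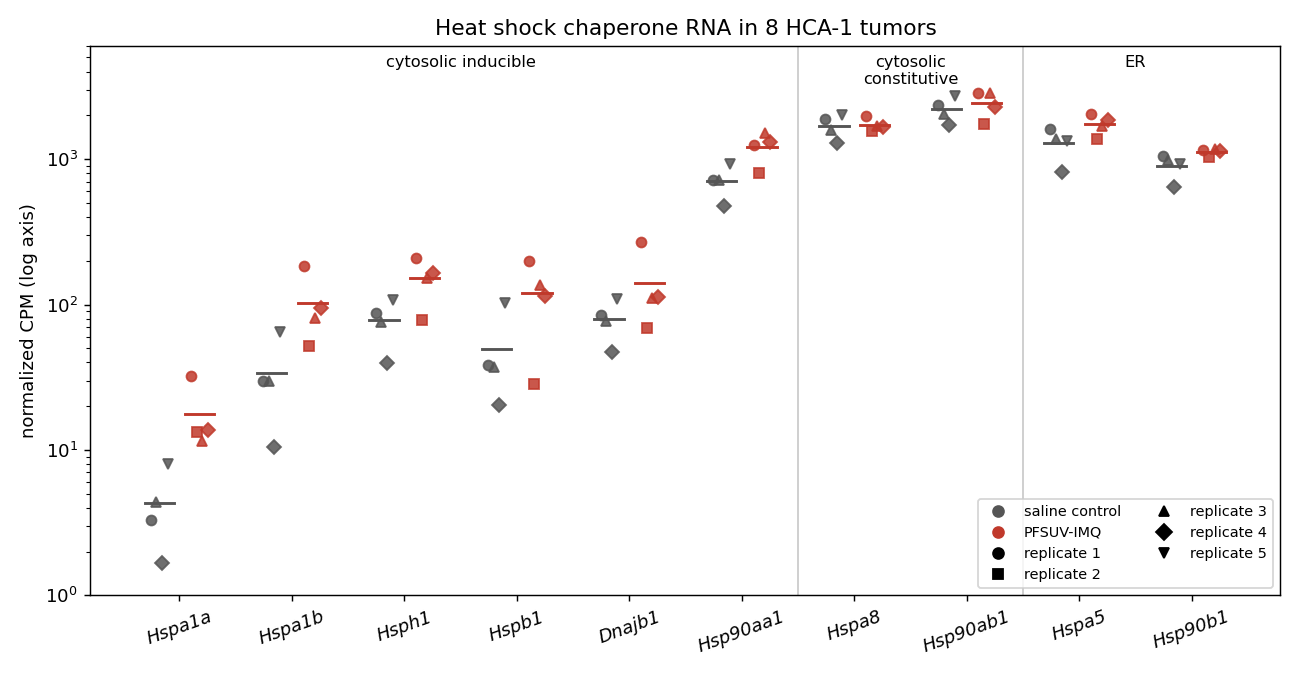
Normalized CPM of the 10 members on a log axis, with 1 point per tumor (gray saline control, red PFSUV-IMQ), the symbol giving the replicate number and the short line the group mean. Hspa1a is the only member whose groups do not overlap, and Control tumor 4 (gray diamond) is the lowest control for all 10 members.

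Hspa1a and Hspa1b encode the stress-inducible Hsp70 and lie near each other on chromosome 17 (GRCm38), at chr17:34969190-34972156 and chr17:34956436-34959238, both on the minus strand. Hspa1a stood at 3.27, 4.36, 1.68 and 8.04 CPM in Control tumors 1, 3, 4 and 5 and at 32.0, 13.3, 11.5 and 13.7 CPM in IMQNP tumors 1 to 4. The lowest IMQNP tumor was above the highest Control tumor, and IMQNP tumor 1 stood far above the others of its group. Its mean was 4.34 ± 2.70 CPM in the Control and 17.6 ± 9.63 CPM in the IMQNP tumors (SD over 4 tumors). The log2 fold change was 2.03 (SE 0.50, 95% interval 0.91 to 3.15) and missed the threshold in edgeR (adjusted p = 0.0743, range over the alternatives 0.00112 to 0.207). Without Control tumor 5, the highest control, the adjusted p was 0.0351, and with no filter on low counts it was 0.0108. Hspa1b stood at 29.9, 29.6, 10.4 and 64.7 CPM in the Control tumors and at 183, 51.6, 80.2 and 94.4 CPM in the IMQNP tumors. IMQNP tumor 2 was below Control tumor 5, so the groups overlapped by 1 tumor on each side. The log2 fold change of Hspa1b was 1.61 (SE 0.54, 95% interval 0.41 to 2.81, edgeR adjusted p = 0.209).

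The 2 Hsp70 genes could not be fully separated by reads. Of the 50-base words in their longest transcripts, 60.4% in Hspa1a and 62.3% in Hspa1b also occurred in another gene, for the most part in each other. Summed to 1 gene they stood at 33.1, 33.9, 12.1 and 72.8 CPM in the Control tumors and at 215, 65.0, 91.7 and 108 CPM in the IMQNP tumors, with a log2 fold change of 1.66 (edgeR adjusted p = 0.176). The summed groups overlapped between Control tumor 5 and IMQNP tumor 2. An antisense gene, Gm20481, covered 19% of the exon bases of Hspa1a.

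Hsph1 encodes Hsp110, which releases nucleotide from Hsp70. It stood at 87.4, 76.2, 39.9 and 108 CPM in the Control tumors and at 209, 78.2, 152 and 165 CPM in the IMQNP tumors, a log2 fold change of 0.96 (SE 0.35, edgeR adjusted p = 0.264). IMQNP tumor 2 lay within the control range and the other 3 lay above it. Hspb1, the small heat shock protein Hsp25, stood at 38.2, 37.3, 20.5 and 103 CPM in the Control tumors and at 200, 28.3, 137 and 114 CPM in the IMQNP tumors. Its log2 fold change was 1.27 (SE 0.60, edgeR adjusted p = 0.428), and again only IMQNP tumor 2 was not above the controls. Without Control tumor 5 the log2 fold change of Hspb1 was 1.91, and without IMQNP tumor 1 it was 0.91. Dnajb1, an Hsp40 that brings substrates to Hsp70, stood at 85.1, 76.5, 47.0 and 108 CPM in the Control tumors and at 269, 68.5, 111 and 114 CPM in the IMQNP tumors. Its log2 fold change was 0.83 (SE 0.41, edgeR adjusted p = 0.459), with IMQNP tumors 3 and 4 just above the highest control. Without IMQNP tumor 1 the log2 fold change of Dnajb1 was 0.30, and without IMQNP tumor 2 it was 1.03.

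Hsp90aa1, the inducible Hsp90, was the most abundant inducible member, at 181 CPM per kilobase of exon in the Control tumors, where the other inducible members lay between 1.46 and 48.2. It stood at 718, 721, 477 and 929 CPM in the Control tumors and at 1251, 798, 1517 and 1301 CPM in the IMQNP tumors, a log2 fold change of 0.77 (SE 0.27, 95% interval 0.16 to 1.38, edgeR adjusted p = 0.241). IMQNP tumor 2 was the only treated tumor below the highest control. Of its 50-base words 58.5% occurred in other genes, and its closest look-alike, Gm12346, carried counts equal to 0.739% of its CPM. For Hspb1, where 51.7% of words were shared with Hsp25-ps1, that share was 0.437%. These shares do not show whether reads of the members were lost, since reads matching both genes may have been dropped from both.

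The constitutive members had the smallest fold changes of the 10. Hspa8, the Hsc70 that serves protein folding and clathrin uncoating in unstressed cells, stood at 1881, 1591, 1284 and 2001 CPM in the Control tumors and at 1974, 1551, 1687 and 1660 CPM in the IMQNP tumors. All treated values lay within the control range, and the log2 fold change was 0.02 with a 95% interval of -0.46 to 0.51 (edgeR adjusted p = 0.981), its sign turning to -0.047 under upper-quartile normalization. Hsp90ab1, the constitutive Hsp90, stood at 2339, 2027, 1725 and 2712 CPM in the Control tumors and at 2840, 1747, 2869 and 2290 CPM in the IMQNP tumors. Its log2 fold change was 0.15 with a 95% interval of -0.41 to 0.71 (edgeR adjusted p = 0.885). Per kilobase of exon, Hsp90ab1 was the most abundant of the 10 members in both groups, at 734 CPM per kilobase in the Control and 813 in the IMQNP tumors. Hspa8 stood at 393 and 399 CPM per kilobase, but 73.2% of its 50-base words occurred in other genes against 4.49% for Hsp90ab1. How reads with several matches were counted was not settled, so the order of these genes holds for the counts as deposited.

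The ER members were abundant too, with fold changes between those of the constitutive and the inducible members. Hspa5, the ER Hsp70 known as BiP that also holds the stress sensors silent, stood at 1623, 1365, 816 and 1342 CPM in the Control tumors and at 2030, 1382, 1684 and 1861 CPM in the IMQNP tumors. Its log2 fold change was 0.44 (SE 0.25, 95% interval -0.14 to 1.01, edgeR adjusted p = 0.555), with IMQNP tumor 2 inside the control range. Hsp90b1, the ER Hsp90 known as GRP94, stood at 1044, 979, 640 and 931 CPM in the Control tumors and at 1163, 1030, 1165 and 1130 CPM in the IMQNP tumors. Only Control tumor 1 reached above the lowest treated tumor, and the log2 fold change was 0.32 (SE 0.21, 95% interval -0.14 to 0.78, edgeR adjusted p = 0.604). An opposite-strand gene, 1810014B01Rik, covered 10.3% of its exon bases.

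**Figure D2:**
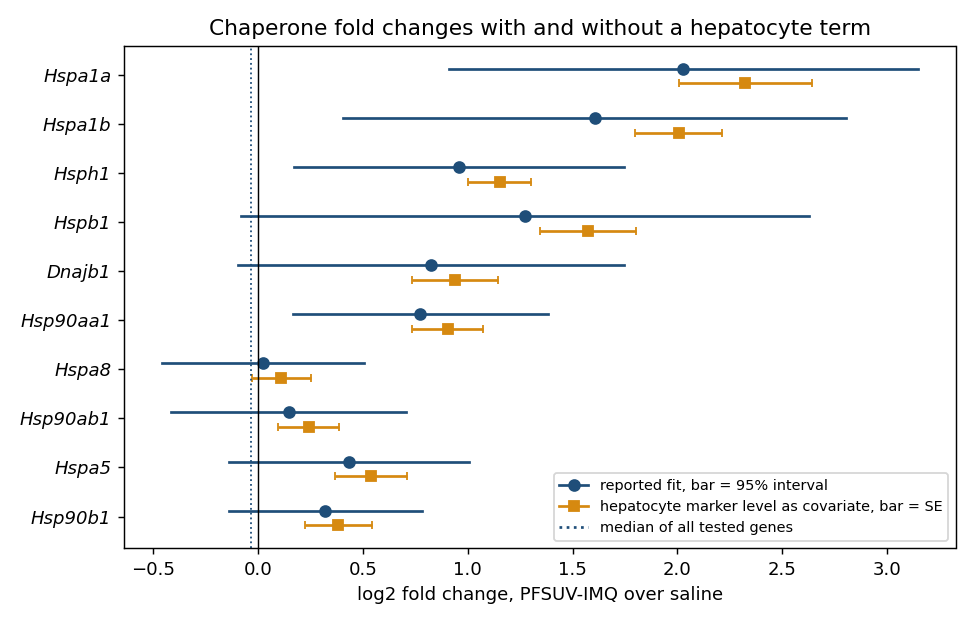
Log2 fold change of each member, PFSUV-IMQ over saline, in the fit as reported (blue circles, bars are 95% intervals) and with the hepatocyte marker level as a covariate, an alternative chosen after seeing the data (orange squares, bars are SE). The dotted line is the median of all tested genes, -0.03, and the constitutive and ER members lie nearest to it in both fits.

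The contrast of cytosolic inducible with ER chaperones was taken as the mean log2 fold change of the 6 inducible members minus that of the 2 ER members, which was 0.87. With Hspa1a and Hspa1b summed to 1 gene, this difference was 0.72. A score over chosen members carries no test here. In single tumors, the mean log2 CPM of the inducible members minus that of the ER members was -4.60, -4.43, -4.70 and -3.60 in Control tumors 1, 3, 4 and 5 and -2.87, -4.16, -3.51 and -3.54 in IMQNP tumors 1 to 4. The group means were -4.33 ± 0.50 and -3.52 ± 0.52 (SD, n = 4 each), and the groups overlapped, with Control tumor 5 above IMQNP tumor 2. The inducible mean alone spanned 4.79 to 6.53 log2 CPM in the Control and 6.07 to 7.71 in the IMQNP tumors, while the ER mean spanned 9.50 to 10.35 and 10.22 to 10.59.

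**Figure D3:**
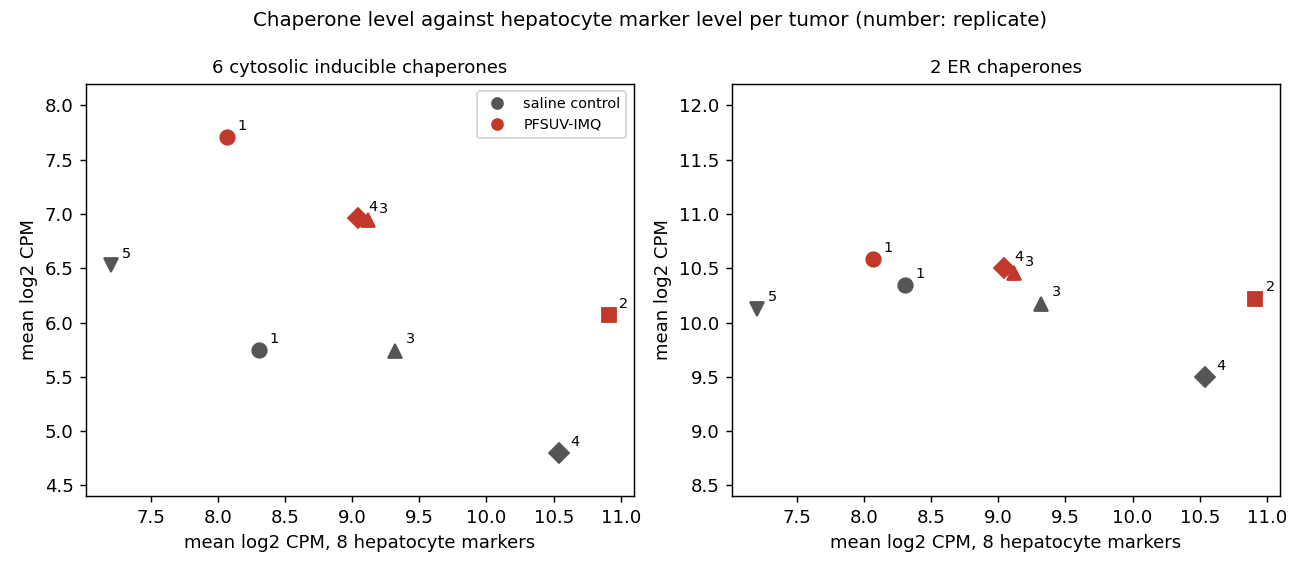
Mean log2 CPM of the 6 inducible (left) and the 2 ER chaperones (right) against the mean log2 CPM of 8 hepatocyte markers, 1 point per tumor with its replicate number, both vertical axes spanning the same range. In the left plot Control tumor 4 and IMQNP tumor 2, at the right, are the lowest of their groups, and Control tumor 5 and IMQNP tumor 1, at the left, are the highest.

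Within a group, chaperone levels were lowest where hepatocyte markers were highest. Control tumor 4, the control with the most hepatocyte RNA, was the lowest control for 10 of 10 members, and IMQNP tumor 2 was the lowest treated tumor for 9 of 10, the exception being Hspa1a. Control tumor 5 and IMQNP tumor 1, with the least hepatocyte RNA, were highest for 8 and 7 of the 10. This order was not particular to the members. Among the lists described below, Control tumor 4 was the lowest control for 8 of 8 TRiC chaperonin and 10 of 12 immediate early genes. IMQNP tumor 2 was the lowest treated tumor for 7 of the 8 and 8 of the 12. Of 22 ER folding genes, these tumors were lowest for 8 and 4. The share over all tested genes was not counted. The summed level of the 8 hepatocyte markers ranged from 4401 to 33463 CPM in the Control and from 6265 to 34756 CPM in the IMQNP tumors, and none of these markers passed the test between groups. Summed over 5 fibroblast markers, IMQNP tumor 1 stood at 5946 CPM, against at most 2471 in any Control tumor. Most of this sum was Col1a1 (3913 CPM) and Col3a1 (1692 CPM). IMQNP tumor 1 was the highest treated tumor for 4 of the 5 markers and the lowest for 1, Dcn. IMQNP tumor 2 was in addition the highest treated tumor for 10 of 10 interferon-stimulated genes, 5 of 5 neutrophil, 6 of 6 T and NK cell and 5 of 5 B cell markers, and IMQNP tumor 1 was the lowest for 9 of 10 interferon-stimulated genes. Control tumor 4 was the highest control for 1 of the 5 neutrophil, 1 of the 6 T and NK cell and 2 of the 5 B cell markers. It was also the highest control for 5 of 6 macrophage and 4 of 5 endothelial cell markers. IMQNP tumor 2 was the highest treated tumor for 3 of these 6 and 2 of these 5. Mitochondrial transcripts took 2.29%, 4.72%, 4.19% and 1.37% of counts in Control tumors 1, 3, 4 and 5 and 1.59%, 6.65%, 3.76% and 5.22% in IMQNP tumors 1 to 4, lowest in the tumors with the least hepatocyte RNA. The part of tissue composition in the chaperone values was not tested beyond the following fits, and that of the immune, interferon and mitochondrial levels was not tested.

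After these values were seen, 2 alternatives were added to the 15 fits already listed, and they differed in their calls. With the hepatocyte marker level as a covariate, edgeR called 6 of 10 members higher, where 4.66% of all genes were called, and these were the 6 inducible genes. The log2 fold change was then 2.32 for Hspa1a (SE 0.32), 2.01 for Hspa1b (SE 0.21), 1.57 for Hspb1 (SE 0.23), 1.15 for Hsph1 (SE 0.15), 0.94 for Dnajb1 (SE 0.21) and 0.90 for Hsp90aa1 (SE 0.17), with edgeR adjusted p from 1.7e-04 to 0.0173. The ER members were not called, at 0.54 for Hspa5 (edgeR adjusted p = 0.0919) and 0.38 for Hsp90b1 (edgeR adjusted p = 0.193), nor were the constitutive ones. Without Control tumor 4 and IMQNP tumor 2, the tumors with the most hepatocyte RNA, with 3 tumors left in each group, 0 of 10 members were called, and the log2 fold changes stayed near those of all 8 tumors. They were 1.85 for Hspa1a (SE 0.46), 1.51 for Hspa1b (SE 0.40), 1.32 for Hspb1 (SE 0.41), 0.93 for Hsph1 (SE 0.20), 0.85 for Dnajb1 (SE 0.35) and 0.76 for Hsp90aa1 (SE 0.18), with edgeR adjusted p from 0.0638 to 0.412. The inducible minus ER difference was 0.93 without these tumors and 1.02 with the covariate. Because the covariate was picked after its relation to the chaperones had been seen, its calls are not independent evidence, and the result reported remains 0 of 10. In all, 12 of the 17 alternative fits called no member and the other 5 called between 1 and 6.

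The other genes of protein folding were read from lists of known roles. Of 20 cytosolic co-chaperones and heat shock factors, 1 was called higher (2.46% of all genes were) and 0 lower, with a median log2 fold change of 0.10. At an unadjusted p under 0.05 in edgeR, 3 of the 20 were higher, against 8.34% of all genes. Every IMQNP tumor lay above every Control tumor for 3 of the 20, against 6.00% of all genes. The gene called was Dnaja1, an Hsp40 partner of Hsp70, at 226, 223, 196 and 225 CPM in the Control tumors and 373, 313, 353 and 379 CPM in the IMQNP tumors (log2 fold change 0.71, SE 0.15, edgeR adjusted p = 0.0416), and its groups did not overlap. With each tumor left out in turn, Dnaja1 was called in 1 of 8 fits. Bag3, a nucleotide exchange factor for Hsp70, had a log2 fold change of 0.52 (edgeR adjusted p = 0.562), and Hsf1, which encodes heat shock factor 1, had -0.05 (edgeR adjusted p = 0.963).

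Of 22 genes of ER folding and the unfolded protein response, 1 was called higher, against the same 2.46% of all genes, and 0 lower, with a median log2 fold change of 0.26. At an unadjusted p under 0.05 in edgeR, 4 of the 22 were higher, against 8.34% of all genes. Every IMQNP tumor lay above every Control tumor for 6 of the 22, against 6.00% of all genes. Syvn1, the ubiquitin ligase of ER-associated degradation, stood at 46.6, 47.4, 53.3 and 71.1 CPM in the Control tumors and 93.9, 223, 145 and 140 CPM in the IMQNP tumors (log2 fold change 1.46, SE 0.27, edgeR adjusted p = 0.0208). All treated tumors lay above the controls, and the call held in 3 of 8 fits with 1 tumor left out. Creld2 (log2 fold change 0.85, edgeR adjusted p = 0.0773) and Xbp1 (0.38, edgeR adjusted p = 0.390) did not pass, though their groups did not overlap. None was called in 8 genes of the ATF4 and CHOP arm, 8 mitochondrial chaperones and proteases and 8 subunits of the TRiC chaperonin, where the medians were 0.33, 0.06 and -0.10. At an unadjusted p under 0.05 these 3 lists also held 0 genes. Of 12 immediate early genes, which mark acute stress and growth signals, 1 (Zfp36, 2.40-fold, edgeR adjusted p = 0.0277, called in 2 of 8 fits with 1 tumor left out) was called, where 2.46% of all genes were. For 9 of the 12 the unadjusted p was under 0.05 and the IMQNP level higher, as for 8.34% of all genes, and the median over the 12 log2 fold change was 0.89.

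**Figure D4:**
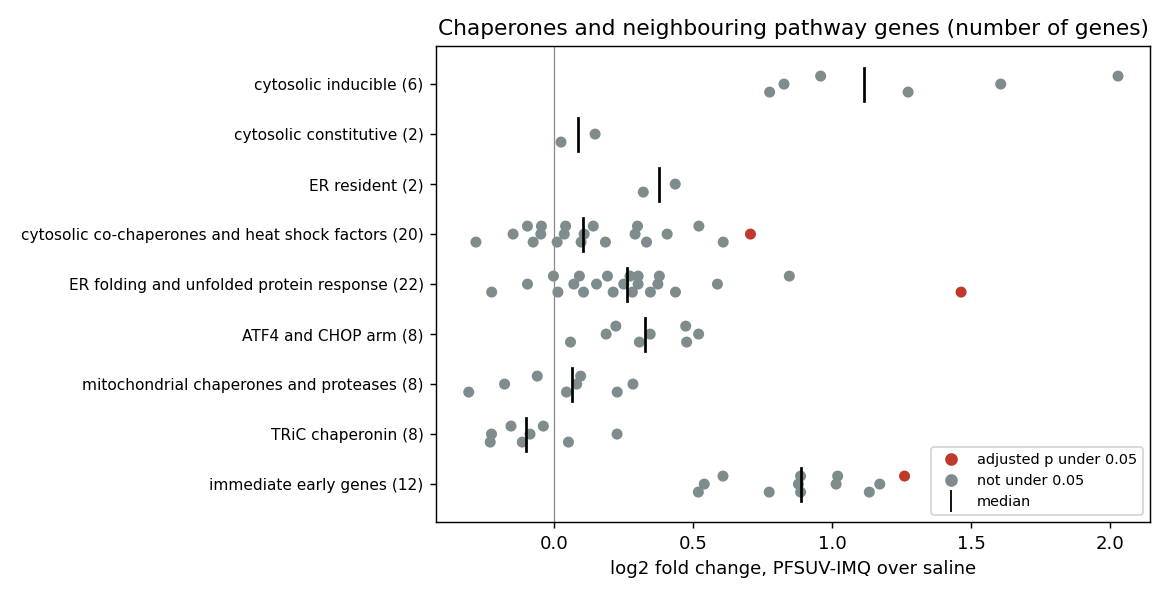
Log2 fold change of each gene, PFSUV-IMQ over saline, by list, with red points for adjusted p under 0.05 in edgeR's quasi-likelihood test, gray points for the rest and a black line at the median. The inducible chaperones have a median of 1.12 with no red point, and the lists of co-chaperones, ER folding and immediate early genes have 1 red point each.

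Across the 8 tumors, with each group centred on its own mean, the members moved together, with Pearson r of 0.534 to 0.945 between pairs. The genes most like Hspa1b by this measure were Fez2 (r = 0.996), Tusc5 (0.989), Pafah1b3 (0.984), Rpl5 (0.981) and Eml2 (0.979). Those most like Hspa5 were Nufip1 (r = 0.991), Gprc5b (0.985), Fbxo25 (0.982), Colec12 (0.982) and Parm1 (0.976). Differences in depth and tissue composition between the tumors enter the values of all these genes. The r values are therefore a description over 8 points. The named genes were picked as the highest r of all tested genes outside the members, so such high values are not evidence of shared regulation. The spread of r over all genes was not computed. None of these 10 genes passed the test between the groups in edgeR, with log2 fold changes from -0.42 to 0.15.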

How the data were processed

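RNA was sequenced from 8 HCA-1 tumors (4 Control, 4 IMQNP) with a KAPA mRNA HyperPrep library. The authors deposited raw counts per gene and a table of DESeq2-normalized signal, which was used for symbols and joins. The submitters' processing notes name CASAVA, FastQC, MultiQC, Trimmomatic 0.38, HISAT2 2.1.0 and featureCounts 2.0.0, while the study's methods name TopHat and HTSeq; which made the counts, and whether strand was used, was not settled. The genome build is not given in the sources used here; all 55536 identifiers are in GENCODE M21 (GRCm38), which gave coordinates and lengths.

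Counts were tested with edgeR 4.0.16 (R 4.3.3; TMM, filterByExpr, quasi-likelihood test, Control and IMQNP) over 15998 genes. Adjusted p is Benjamini-Hochberg over all of them, called under 0.05 with no fold limit. CPM uses TMM library sizes. DESeq2 1.42.0, other normalizations and filters, a replicate block and leaving out tumors were alternatives. Scripts were tested on simulated data. Whether the tumors shared a cage or an extraction is not stated, so p-values cover the spread between these tumors. Floors cover counting error only.

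The members and lists were chosen with earlier results of these data known. Named were all members, of each other list at most the 4 genes of largest fold change plus Hsf1, Xbp1, Atf4 and Ddit3, and the 5 genes most correlated with Hspa1b and with Hspa5. Alb, Krt18 and Igf2 were named as markers.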

Additional observations from a re-analysis of the deposited data

Results flagged for a closer look

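Hspa1a stood at 32.0 CPM in IMQNP tumor 1, apart from the other 3 treated tumors at 11.5 to 13.7 CPM. The gap to the nearest tumor was 0.893 of the range of the group, above Dixon's critical value at the 95% level for 4 samples. This was 1 of 26 groups of 4 values checked, and chance exceeds the limit in about 1 in 20 groups. IMQNP tumor 1 was also the highest treated tumor for 7 of the 10 members and the lowest for all 8 hepatocyte markers, and the part of either in the Hspa1a value was not tested.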

How the results depend on the processing

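The reported counts were 394 genes higher and 35 lower, with 0 chaperones called. Tumors with the same replicate number were not consistently alike (r of same-numbered deviations 0.29, -0.27 and -0.32), but so few values cannot exclude a shared batch or handling. The fit with a replicate block called 6 chaperones (the inducible ones), 519 genes higher and 302 lower. Number 2 was held only by an IMQNP tumor and number 5 only by a Control tumor, so that fit compared 3 pairs and left IMQNP tumor 2 and Control tumor 5 out of the contrast. DESeq2's Wald test called 2 chaperones, 729 genes higher and 176 lower, and no filter on low counts gave 1 chaperone and 64 genes lower. The hepatocyte covariate, added after seeing the data, gave 6 chaperones, 745 genes higher and 480 lower. With each tumor left out in turn, 0 to 1 chaperones were called higher (1 without Control tumor 5), 198 (without Control tumor 1) to 398 genes higher and 8 (without IMQNP tumor 4) to 41 lower, and the inducible minus ER difference was 0.58 to 1.21. Over the other settings that difference was 0.72 (Hspa1a and Hspa1b summed) to 1.31 (replicate block). Of the members, only Hspa8 changed sign, to -0.047 under upper-quartile normalization, to -0.064 without Control tumor 4 and IMQNP tumor 2, and to between -0.089 and 0.115 with 1 tumor left out. Genes higher fell below the reported count by over 1.5 times also without Control tumor 3 (212), Control tumor 4 (240) or IMQNP tumor 4 (244). Genes lower numbered 16, 13 and 17 without Control tumors 1, 3 and 4, and 10 without IMQNP tumor 3. The cause of these shifts was not tested. With 4 tumors a group, Hspa1a rested on 39 to 580 counts a tumor.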
